A study of Populus euphratica with 12 samples.

Results

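Broad-ovate (Bo) leaves were compared with ovate (Ov) leaves of Populus euphratica, the desert poplar, across mRNAs, lncRNAs (long RNAs that do not code for protein) and circRNAs (RNAs closed into a circle). The species bears linear (Li), lanceolate (La), Ov and Bo leaves as it ages, and the Ov/Bo step is the last of these changes in leaf shape. The 3 Ov libraries came from trees 8 to 12 years old and the 3 Bo libraries from trees over 20 years old, so that leaf shape and tree age cannot be told apart here. Total RNA was taken from the second juvenile leaf behind the shoot apex, and no tree was transformed or treated. The study calls the libraries of a shape biological replicates, but the labels do not say that they came from separate trees. If they did not, p-values measure only the spread between these libraries, which may be technical. The 6 libraries belong to a set of 12, whose 3 Li libraries (trees 0 to 3 years old) and 3 La libraries (trees 4 to 6 years old) served to estimate the spread and, where named, as further levels.

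Members were the transcripts with enough signal in these 6 libraries. Of 49676 mRNAs listed, 32429 had a mean of at least 0.5 FPKM (fragments per kilobase of transcript, scaled to the depth of the library, hence a level per length) over the 6 libraries. The same rule kept 1432 of 4460 lncRNAs, of which 1122 were annotated and 310 were assembled from these reads. Of 1149 circRNAs, 249 were above 0 in at least 2 of the 6 libraries, and 229 of them overlapped an annotated gene on its own strand.

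In flowering plants, a shoot passes through juvenile and adult phases, and leaf shape is one of the traits that changes with phase. In Arabidopsis, microRNA miR156 holds back the SPL transcription factors in the juvenile phase, and adult leaves form as SPL levels rise. Blade outline is then set by polarity factors, by KNOX and boundary genes that are confined to the meristem and its margins, and by how long cells divide and expand. circRNAs form when a splice donor is joined to an acceptor upstream of it.

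The 6 libraries did not fall cleanly by leaf shape. The mean Spearman correlation of mRNA levels was 0.871 between libraries of one shape and 0.859 between shapes, a difference of 0.0119 (exact permutation p = 0.3, one-sided, over 10 splits, where 0.1 is the smallest possible). Bo1 and Bo2 were the most alike pair at 0.949, whereas Bo3 correlated with them at 0.817 and 0.846 and with the Ov libraries at 0.838 to 0.871. Bo3 lay more than 4-fold from the mean of the other 2 libraries of its group in 1690 mRNAs (5.21%), of which 1187 were lower in Bo3. The corresponding shares in the other 5 libraries were 0.867% to 2.72%. For lncRNAs the mean correlations were 0.679 within and 0.626 between shapes (exact permutation p = 0.2), with Bo1 and Bo2 at 0.825 and Bo3 against them at 0.579 and 0.626. Results whose call or direction changed without Bo3 are given as such below. Photosynthetic tissue was present throughout: the small subunit of the carbon-fixing enzyme Rubisco (XM_011022942.1) stood between 964 and 2570 FPKM in all 6 libraries. The share of other tissue cannot be read from that mRNA.

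A small set of weakly expressed mRNAs was higher in Bo than in Ov leaves. With limma on log2(FPKM + 1), 41 of 32429 mRNAs passed an adjusted p of 0.05, which is 0.126% of those tested. Of these, 37 rose in Bo (0.114%) and 4 fell (0.0123%), and in all 41 the 3 Bo libraries did not overlap the 3 Ov libraries. Groups that do not overlap were found in 6.66% of all mRNAs in the higher direction and in 4.94% in the lower direction. With p-values left unadjusted, 2921 mRNAs (9.01%) passed 0.05, 1648 higher (5.08%) and 1273 lower (3.93%). The median log2 change over all mRNAs was 0.07, and it was 0.01 after median ratio scaling. Without Ov3 the count was 26 and without Bo3 it was 559, and the 41 were all among the 559. When only the 6 Bo and Ov libraries were fitted, 3 mRNAs passed, 1 higher and 2 lower. Of these 3, 1 was among the 41, so that all but 1 of the calls were made only with the Li and La libraries in the fit. The fit of 6 libraries has fewer samples and its own estimate of the spread, and what lowered the count was not tested.

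**Figure D1:**
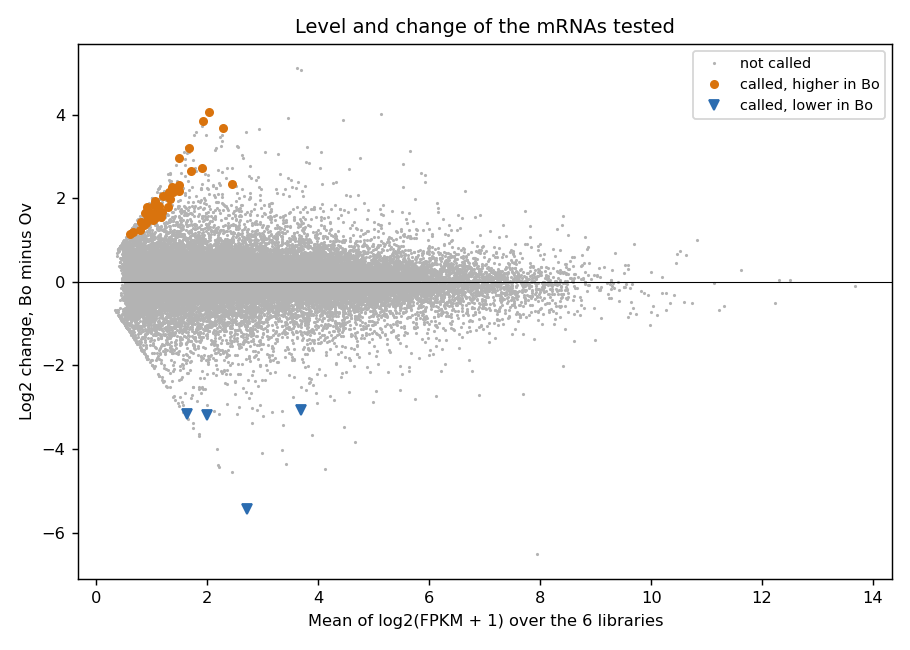
Each point is an mRNA, with its mean log2(FPKM + 1) over the 6 libraries on the x axis and the log2 change, Bo minus Ov, on the y axis. The 37 mRNAs called higher in Bo lie at low mean levels with changes of 1.15 to 4.07, and the 4 called lower lie at changes of -3.06 to -5.44, while larger changes at higher levels were not called.

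The 37 mRNAs that rose were near the floor of detection in Ov leaves. In 35 of them all 3 Ov libraries were under 1 FPKM, in 31 all 9 Ov, Li and La libraries were, and in 28 the Bo mean stayed under 5 FPKM. The shares of all tested mRNAs within these limits were not worked out. An mRNA near 0 in Ov could pass the level filter only through Bo, and adding 1 FPKM narrows the spread of low values. Low Ov levels were thus in part selected. With 0.1 FPKM added in place of 1, only 2 mRNAs were called higher. The median level over the 37 mRNAs was 0.261, 0.0200 and 0.102 FPKM in Ov1, Ov2 and Ov3 and 3.53, 2.79 and 3.12 FPKM in Bo1, Bo2 and Bo3. Bo3 was the lowest Bo library in 14 and the highest in 12, and a small spread within each shape, Li and La included, was part of what the test selected. Ov2 was the lowest Ov library in 27 of the 37. In bulk leaf RNA, fewer cells that hold a transcript and less of it per cell cannot be told apart.

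The largest rise among called mRNAs was that of XM_011020383.1 (gene LOC105121652), which was under 0.01 FPKM in each Ov library and stood at 4.75, 21.0 and 36.2 FPKM in Bo1, Bo2 and Bo3. Its difference on the log2(FPKM + 1) scale was 4.07 ± 0.55 (SE, n = 3 per group, adjusted p = 0.0150). XM_011016934.1 (LOC105118878) was likewise under 0.01 FPKM in Ov and stood at 13.8, 15 and 11.8 FPKM in Bo, a difference of 3.86 ± 0.34 (adjusted p = 0.00138). It was the only mRNA of the 41 that also passed when only the 6 libraries were fitted. XM_011020711.1 (LOC105121866) went from 0.355, 0.818 and 0 FPKM in Ov to 8.89, 14.4 and 34.0 FPKM in Bo (3.69 ± 0.41, adjusted p = 0.00489). Bo3 was the highest library for XM_011020383.1 and XM_011020711.1 and the lowest Bo library for XM_011016934.1. The files and annotation used here give these genes no product name.

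The other large rises were more even across the Bo libraries. XM_011008220.1 (LOC105112500) stood at 1.51, 0 and 0.240 FPKM in Ov and at 10.3, 7.63 and 8.19 FPKM in Bo (2.72 ± 0.31, adjusted p = 0.00530). XM_011027910.1 (LOC105126888) went from 0.582, 0 and 0.430 to 7.35, 6.49 and 7.77 FPKM (2.64 ± 0.22, adjusted p = 0.00111). XM_011031261.1 (LOC105129270) was the best expressed of this set in Ov, at 1.61, 2.26 and 0.637 FPKM, and reached 13.4, 8.86 and 11.9 FPKM in Bo (2.35 ± 0.36, adjusted p = 0.0379). In each of these 3 the groups were far apart. XM_011037359.1, XM_011049824.1, XM_011044002.1, XM_011026783.1, XM_011049826.1, XM_011035136.1 and XM_011001186.1 differed by 1.98 to 2.32 on the same scale. Their Ov values lay between 0 and 0.623 FPKM and their Bo values between 2.49 and 6.27 FPKM.

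Among the 37 risers, 5 carry a gene symbol or a product name, and 4 of these names belong to genes known from pollen. Whether that share is above the one among all named mRNAs was not tested. Pollen grains carry their own cell wall enzymes and proton pumps, which in Arabidopsis and tomato are made late in anther development. ATVEX1 (XM_011030284.1), whose Arabidopsis namesake marks the vegetative cell of the pollen grain, was at 0.135, 0 and 0 FPKM in Ov and at 1.13, 1.68 and 1.38 FPKM in Bo (1.19 ± 0.18, adjusted p = 0.0285). A probable pectate lyase P59 (XM_011027652.1, LOC105126703), an enzyme that cuts pectin and is known from tomato anthers, was at 0.409, 0.216 and 0.350 FPKM in Ov and at 4.02, 2.86 and 3.85 FPKM in Bo (1.78 ± 0.20, adjusted p = 0.00530). In both, each Bo library was above each Ov library by a wide margin. Beta-galactosidase 13-like (XM_011047969.1, LOC105140921), a wall enzyme, stood at 0.350, 0.172 and 0.305 FPKM in Ov and at 3.67, 2.76 and 2.76 FPKM in Bo (1.67 ± 0.20, adjusted p = 0.00725). ATPase 8, plasma membrane-type-like (XM_011019663.1, LOC105121134), a proton pump, stood at 0.672, 0.0604 and 0.0270 FPKM in Ov and at 2.60, 2.16 and 2.90 FPKM in Bo (1.54 ± 0.24, adjusted p = 0.0376). All 4 Bo means were under 5 FPKM. The remaining name is that of a WDR12 homolog and belongs to a gene with a further mRNA, given further on. The 3 product names among these 4 come from mRNAs that the study chose on these samples, so that their direction is not independent evidence.

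The levels of further pollen and anther genes were then read from the files, and this list was chosen after the values above had been seen. Of 20 mRNAs of 15 pollen and pollen tube genes, 7 passed the level filter and 1, ATVEX1, was called. PLIM2B, an actin-bundling protein of pollen, was under 0.01, under 0.01 and at 0.0674 FPKM in Ov and at 0.468, 0.235 and 0.281 FPKM in Bo. CPK17, a pollen calcium-dependent kinase, was at 0.125 FPKM in Ov1, under 0.01 in Ov2 and Ov3, and at 0.317, 0.166 and 0.785 FPKM in Bo. PTEN1, a pollen phosphatase, was at 0.199, 0.0329 and 0.105 FPKM in Ov and at 0.717, 0.890 and 0.502 FPKM in Bo. These values did not overlap between the shapes, but all 3 mRNAs were under the level filter and were not tested. They were singled out from the mRNAs of the list under the filter, most of which are not given. They therefore do not stand for the list as a whole. How often mRNAs under the filter do not overlap was not worked out. Of the 7 tested mRNAs of this list, 1 did not overlap, and it was ATVEX1, higher in Bo and already named above. Over all tested mRNAs, 6.66% did not overlap in that direction. Of the 7 tested mRNAs, 5 were above and 2 below 0, the latter pair being NPG1 (XM_011027895.1), at 6.81, 4.95 and 3.77 FPKM in Ov and 6.61, 4.93 and 1.64 FPKM in Bo, and ACA9 (XM_011034729.1). MYB101, a regulator of the pollen tube in Arabidopsis, was listed at 0 in all 6 libraries. The summed level of the list was 96.1 to 121 FPKM in Ov and 85.5 to 112 FPKM in Bo, most of it from ACA9, a calcium pump that stood above 50 FPKM in every library. Of 25 mRNAs of 16 anther, pollen and floral organ genes, 3 passed the filter and 21 were under 0.5 FPKM in all 6 libraries. Floral homeotic mRNAs by product name went the other way, with APETALA 2-like (XM_011008554.1) at 1.12, 1.04 and 0.668 FPKM in Ov and 0.343, 0.455 and 0.319 FPKM in Bo. DEFICIENS-like (XM_011027592.1) stood at 0.854, 0.421 and 2.19 FPKM in Ov and at 0.249, 0.378 and 0.0503 FPKM in Bo, and neither was called. Of the 3 mRNAs on that list, the study chose 2 as falling toward Bo, so that this direction is not independent evidence. DYT1, CRC, ABCG26 and INO were listed at 0 throughout. CYP703A2, a cytochrome of pollen wall formation, was at 0.0463, 0 and 0.12 FPKM in Ov and at 1.23, 1.09 and 0.103 FPKM in Bo, so that Bo3 lay with the Ov libraries. AMS, a tapetum regulator, was at 2.65 and 2.02 FPKM in Bo1 and Bo2, at 0 in Bo3, and at no more than 0.0112 FPKM in Ov, and it was called without Bo3. The part of floral tissue in the calls was not tested.

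**Figure D2:**
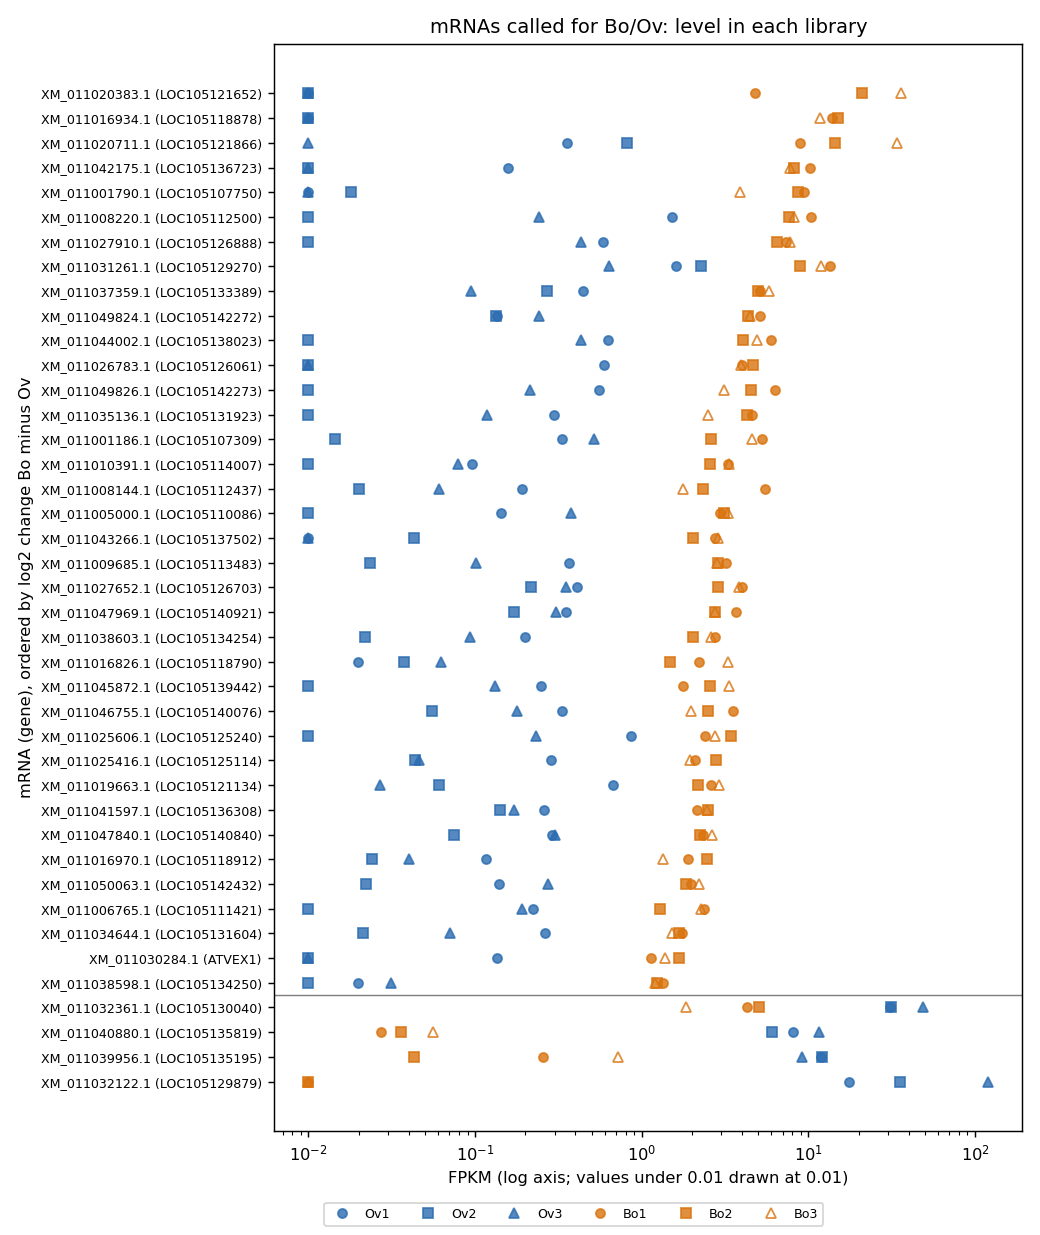
FPKM of the 41 mRNAs called for Bo/Ov in each of the 6 libraries, on a log axis with values under 0.01 drawn at 0.01 and mRNAs ordered by their change. In each row above the grey line the 3 Bo libraries stand to the right of the 3 Ov libraries, and in the 4 rows below it they stand to the left.

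Only 4 mRNAs were lower in Bo leaves. XM_011032122.1 (LOC105129879) stood at 17.5, 35.5 and 120 FPKM in Ov and under 0.01 FPKM in each Bo library, a difference of -5.44 ± 0.87 (adjusted p = 0.0478). It was called in 3 of 16 alternative settings. XM_011039956.1 (LOC105135195) stood at 12.0, 12.0 and 9.14 FPKM in Ov and at 0.255, 0.0430 and 0.719 FPKM in Bo (-3.19 ± 0.27, adjusted p = 0.00111), and its call held in 14 of the 16. XM_011040880.1, an mRNA of a TIFY 6B-like gene, fell from 8.14, 6.02 and 11.6 to 0.0272, 0.0357 and 0.0557 FPKM (-3.16 ± 0.36, adjusted p = 0.00530), with 14 of 16. In Arabidopsis the TIFY family includes the JAZ repressors of jasmonate signalling. XM_011032361.1 (LOC105130040) fell from 31.0, 31.5 and 48.9 to 4.27, 5.03 and 1.84 FPKM (-3.06 ± 0.49, adjusted p = 0.0478), with 5 of 16. In contrast to the risers, these mRNAs were well expressed where they were high. The next lowest p-value belonged to XM_011021228.1 (LOC105122232), at 11.3, 8.74 and 12.1 FPKM in Ov and 1.48, 1.97 and 2.65 FPKM in Bo, which was not called (-1.96 ± 0.32, adjusted p = 0.0558) and was called without Bo3.

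In 4 of the 7 called genes that have more than 1 mRNA listed, a called mRNA changed while the summed level of its gene did not pass the test. Reads that fit more than 1 mRNA of a gene are shared out by a model, so that the split between isoforms is less certain than the sum. In LOC105136723, XM_011042175.1 went from 0.159 FPKM in Ov1 and under 0.01 in Ov2 and Ov3 to 10.3, 8.14 and 7.71 FPKM in Bo (3.2 ± 0.21, adjusted p = 0.000339), the lowest adjusted p of all mRNAs. Its share of the gene was at most 1.02% in Ov and 48.5%, 53.7% and 51.6% in Bo. XM_011042174.1 of the same gene stood at 12.5, 19.8 and 16.9 FPKM in Ov and at 7.58, 4.61 and 5.66 FPKM in Bo, and the gene as a whole differed by -0.16 ± 0.22 (adjusted p = 0.873). The called mRNA was also high in Li leaves, at 9.53, 9.89 and 8.41 FPKM. It was near 0 in La leaves, so that it was not high in Bo leaves alone.

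In the gene of a WDR12 homolog, a protein of ribosome biogenesis, a called mRNA rose beside one that overlapped between the shapes. The mRNA XM_011001790.1 (LOC105107750) was at most 0.0181 FPKM in Ov and stood at 9.45, 8.63 and 3.89 FPKM in Bo (2.97 ± 0.27, adjusted p = 0.00163), which was 45.1%, 51.3% and 32.6% of its gene. XM_011001789.1 of that gene stood at 17.6, 16.6 and 6.42 FPKM in Ov and at 11.5, 8.19 and 8.05 FPKM in Bo (adjusted p = 0.827). The gene total differed by 0.35 ± 0.42 (adjusted p = 0.847).

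In the TIFY 6B-like gene (LOC105135819) the called mRNA fell. XM_011040880.1 made 53.5%, 45.8% and 44.3% of the gene in Ov and at most 0.602% in Bo, and XM_011040882.1 made 43.5% to 53.6% in Ov and 95.4% to 97.5% in Bo. The level of XM_011040882.1 overlapped, at 6.62, 6.39 and 14.0 FPKM in Ov and 15.7, 20.4 and 8.90 FPKM in Bo (adjusted p = 0.855). The gene total differed by -0.22 ± 0.56 (adjusted p = 0.938). In LOC105118790 the called XM_011016826.1 made 88.4% and 86.4% of the gene in Bo1 and Bo2 but 12.5% in Bo3, where XM_011016825.1 reached 23.0 FPKM against 0.290 and 0.230 FPKM in Bo1 and Bo2. By contrast, the totals of LOC105135195 (-2.94 ± 0.36, adjusted p = 0.00656), LOC105134250 (1.17 ± 0.16, adjusted p = 0.0163) and LOC105142272 (2.18 ± 0.18, adjusted p = 0.00117) changed with their called mRNAs.

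**Figure D3:**
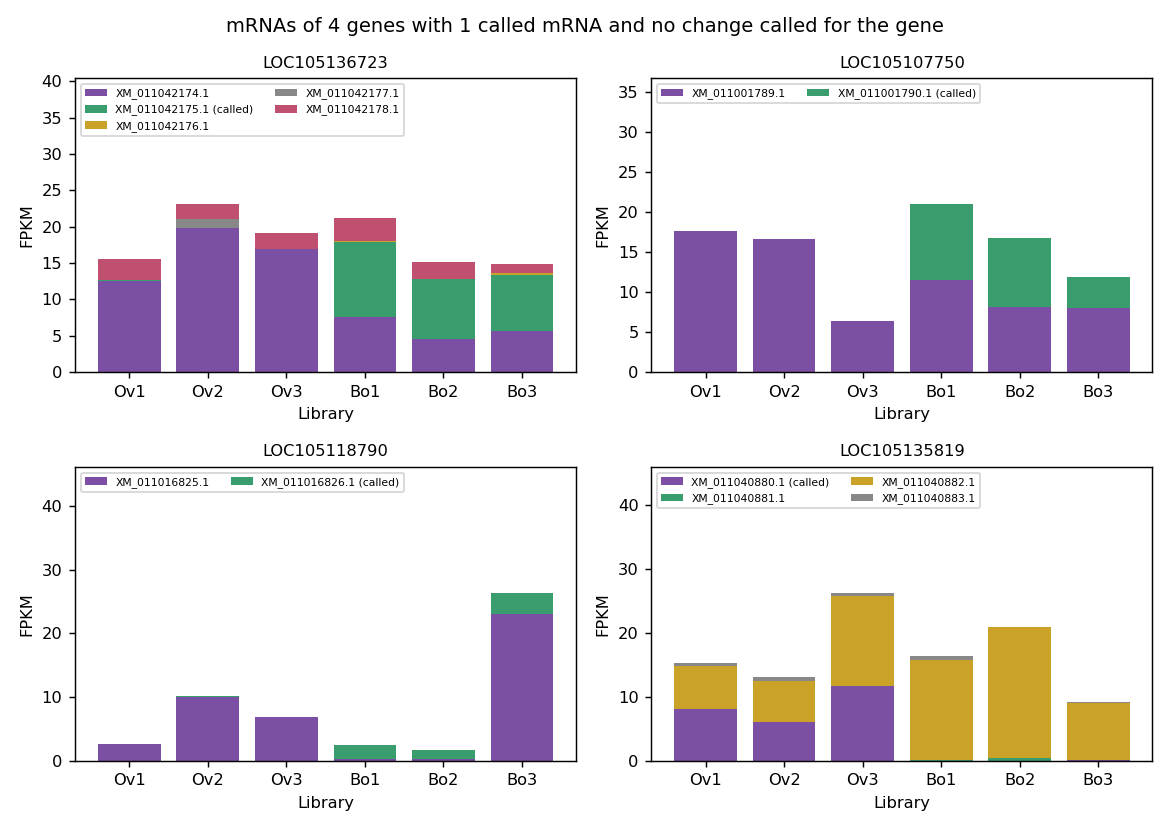
Stacked bars give the FPKM of each mRNA of 4 genes in each of the 6 libraries, with the called mRNA named in each legend. The called mRNA of LOC105136723 makes 48.5% to 53.7% of the gene in Bo and at most 1.02% in Ov at a similar total, and that of LOC105135819 nearly disappears in Bo.

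When mRNAs were summed by gene, 48 of 24234 genes were called (0.198%), 40 higher and 8 lower in Bo. Of the 48, 37 had a called mRNA and 11 did not, with 6 of the 11 higher and 5 lower. LOC105135809 stood at 12.8, 8.30 and 9.59 FPKM in Ov and under 0.01 FPKM in Bo (-3.47 ± 0.27, adjusted p = 0.00109). LOC105122196 was the best expressed of these genes in Ov, at 111, 81.5 and 114 FPKM against 39.6, 40.8 and 54.3 FPKM in Bo (-1.17 ± 0.19, adjusted p = 0.0494). LOC105107524 rose from 15.3, 14.2 and 9.15 to 30.5, 45.2 and 43.9 FPKM (1.57 ± 0.22, adjusted p = 0.0208). These 3 genes were thus well above the floor in the shape where they were high. OPT1, an oligopeptide transporter in Arabidopsis, rose from 0.202, 0.199 and 0.0199 to 2.08, 2.40 and 2.08 FPKM (1.49 ± 0.18, adjusted p = 0.00620). FLA14, a fasciclin-like arabinogalactan protein of the cell surface, rose from 0.131, 0 and 0 to 1.2, 1.1 and 1.57 FPKM (1.13 ± 0.18, adjusted p = 0.0427). GH9A4, a family 9 glycosyl hydrolase, rose from 0.204, 0.0752 and 0.0841 to 1.34, 1.64 and 1.26 FPKM (1.11 ± 0.17, adjusted p = 0.0342). As single mRNAs FLA14 and GH9A4 had adjusted p-values of 0.0571 and 0.0506, and both were called without Bo3.

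An mRNA was counted as present in only one shape when it was at least 0.5 FPKM in all 3 libraries of that shape and under 0.01 FPKM in all 3 of the other. Among the 49676 mRNAs listed there were 13 such mRNAs on the Bo side and 19 on the Ov side, and 2 and 1 of them were called. Only 4 of the 13 and 1 of the 19 were under 0.5 FPKM in all Li and La libraries. On the Bo side 7 were the only mRNA of their gene, and on the Ov side 4 were. The others have further mRNAs, so that an absent mRNA need not mean an absent gene. UNE15 (XM_011043177.1) was listed at 0 in all Ov, Li and La libraries and stood at 0.928, 0.817 and 0.887 FPKM in Bo. XM_011025422.1 (LOC105125119) was listed at 0 in Ov and stood at 0.874, 0.955 and 0.895 FPKM in Bo. Both had a mean over the 6 libraries under the level filter and were not tested. On the Ov side XM_011016709.1 (LOC105118699) stood at 19.2, 22.4 and 19.8 FPKM in Ov and under 0.01 FPKM in Bo, but its gene averaged 63.8 FPKM in Ov and 64.8 FPKM in Bo. Within La leaves that mRNA was under 0.01 FPKM in La1 and at 24.5 and 27.5 FPKM in La2 and La3. LOC105136809 (XM_011042296.1), the only mRNA of its gene, stood at 1.6, 0.997 and 0.831 FPKM in Ov and at 0 in Bo.

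No gene list built around leaf shape, phase or growth held a called mRNA, ATVEX1 among the pollen genes apart. Lists were drawn from the gene symbols of the annotation and from the product names in the study's supplement. The study chose its named mRNAs for a stepwise order of level from Li to Bo in these samples, so that for lists by product name the direction is not independent evidence. All counts below can be read against the 5.08% and 3.93% of all mRNAs that were higher and lower at an unadjusted p under 0.05.

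Among the regulators of phase, the 13 mRNAs of 6 SPL genes had a median log2 change of 0.27 (0.41 without Bo3) against 0.07 over all mRNAs (0.12 without Bo3), with 12 above and 1 below 0. At an unadjusted p under 0.05, 2 were higher and none lower, and 8 of the 13 are in the supplement as rising toward Bo. An SPL16-named mRNA (XM_011022481.1) stood at 15.5, 14.0 and 15.6 FPKM in Ov and at 24.1, 28.2 and 18.6 FPKM in Bo, without overlap (0.60 ± 0.19, adjusted p = 0.410). An SPL9-named mRNA (XM_011034944.1) stood at 30.7, 6.4 and 9.88 FPKM in Ov and at 29.7, 24.7 and 24.2 FPKM in Bo, with Ov1 above all 3 Bo libraries. The SPL mRNAs of highest mean level, named for SPL4 (XM_011031202.1), SPL2 (XM_011022434.1) and SPL8 (XM_011034863.1), overlapped between the shapes. XM_011031202.1 stood at 66.9, 30.1 and 26.4 FPKM in Ov and at 82.7, 49.6 and 29.9 FPKM in Bo. SQN, a cyclophilin that acts with miR156 in the juvenile phase of Arabidopsis, stood at 9.34, 8.50 and 6.34 FPKM in Ov and at 3.99, 4.03 and 4.36 FPKM in Bo (-0.81 ± 0.26, adjusted p = 0.408).

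Of 13 flowering and MADS-box mRNAs by product name, 1 was higher at an unadjusted p under 0.05. It was a JOINTLESS-like mRNA (XM_011024752.1), whose tomato namesake forms the break zone of the flower stalk. It stood at 19.8, 3.13 and 3.8 FPKM in Ov and at 51.6, 37.4 and 25.2 FPKM in Bo (2.34 ± 0.58, adjusted p = 0.264). A SOC1-like MADS-box mRNA (XM_011036620.1), of a family that promotes flowering, stood at 113, 144 and 106 FPKM in Ov and at 188, 174 and 105 FPKM in Bo. Bo3 was the lowest library for this mRNA, so that the shapes overlapped.

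Among 35 mRNAs of leaf shape, polarity and boundary genes, 2 were higher and 4 lower at an unadjusted p under 0.05, with a median of 0.16. The genes named next were chosen after their values were seen. KNAT1, a KNOX homeobox gene of the shoot meristem, stood at 24.2, 5.24 and 12.7 FPKM in Ov and at 2.24, 1.34 and 1.02 FPKM in Bo (-2.38 ± 0.62, adjusted p = 0.295). CUC3, a gene of organ boundaries, stood at 1.32, 1.21 and 0.758 FPKM in Ov and at 0.0747, 0.431 and 0.454 FPKM in Bo (-0.67 ± 0.22, adjusted p = 0.416). All 4 tested mRNAs of shoot meristem genes were on the lower side in Bo, with a median of -0.59, and their list summed to 27.3 to 51.7 FPKM in Ov and to 20.9 to 24.6 FPKM in Bo. How much meristem the dissected leaves carried was not measured, and its part in these values was not tested. AS1, which shuts off KNOX genes in Arabidopsis leaves, had an mRNA (XM_011021561.1) at 13.3, 9.25 and 8.09 FPKM in Ov and at 0.0186, under 0.01 and 1.87 FPKM in Bo (-2.94 ± 0.77, adjusted p = 0.3). A further AS1 mRNA (XM_011021558.1) stood at 17.5, 13.7 and 8.05 FPKM in Ov and at 37.8, 21.3 and 11.7 FPKM in Bo, so that the sum over the gene differed by -0.01.

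AGO7 and AGO10 are Argonaute proteins that act on polarity through small RNAs in Arabidopsis. AGO7 stood at 10.9, 9.40 and 6.18 FPKM in Ov and at 25.5, 21.7 and 11.3 FPKM in Bo (1.02 ± 0.34, adjusted p = 0.427). AGO10 stood at 38.3, 42.5 and 31.9 FPKM in Ov and at 49.3, 65.1 and 41.2 FPKM in Bo (0.44 ± 0.20, adjusted p = 0.548). The YABBY 1 mRNA (XM_011019166.1), of a family that marks the lower leaf side, stood at 37.1, 45.8 and 14.8 FPKM in Ov and at 59.8, 43.9 and 21.7 FPKM in Bo, and overlapped. ROT3, a brassinosteroid enzyme that affects leaf length in Arabidopsis, stood at 23.0, 11.6 and 27.7 FPKM in Ov and at 9.09, 11.6 and 6.15 FPKM in Bo (-1.09 ± 0.40, adjusted p = 0.467).

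Lists of dividing cells by symbol and by product name differed in direction, but the latter depend on the study's choice of mRNAs. Of 76 cell cycle and DNA replication mRNAs tested by symbol, 67 were above and 9 below 0, with a median of 0.32, which was 0.25 after median ratio scaling and 0.67 without Bo3. Over all mRNAs 18508 were above and 13921 below 0. The 34 cell division mRNAs by product name had 18 above and 16 below 0, with a median of 0.05, and the 9 dividing cell mRNAs by product name had 4 above and 5 below, with a median of -0.23. The study chose 16 of the 22 cell division mRNAs in its supplement as falling toward Bo. It chose 6 of the 8 dividing cell mRNAs there in the same way. The lists by product name are thus not independent evidence against the list by symbol. In the list by symbol, 3 were higher and none lower at an unadjusted p under 0.05, a share below the background, among them RFC1, a subunit of the clamp loader, at 4.08, 6.39 and 3.2 FPKM in Ov and 12.1, 7.50 and 8.94 FPKM in Bo (0.94 ± 0.25, adjusted p = 0.307). CDKB2;1, a kinase of dividing cells, stood at 70.9, 74.6 and 11.2 FPKM in Ov and at 78.7, 76.7 and 10.8 FPKM in Bo. The low libraries of CDKB2;1 were thus Ov3 and Bo3, 1 of each shape. The summed level of the list was 463 to 907 FPKM in Ov and 497 to 1241 FPKM in Bo.

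Sugar and starch genes held changes in both directions, none called. Of 48 tested mRNAs, 5 were higher and 2 lower at an unadjusted p under 0.05, 2 of the 5 being HKL1 mRNAs with identical values. ADG1, the small subunit of the first enzyme of starch synthesis, stood at 69.1, 64.3 and 43.7 FPKM in Ov and at 145, 101 and 94.9 FPKM in Bo (0.94 ± 0.23, adjusted p = 0.265). SWEET1, a sugar transporter, stood at 37.6, 33.7 and 70.7 FPKM in Ov and at 8.91, 15.8 and 10.5 FPKM in Bo (-1.88 ± 0.43, adjusted p = 0.222). Both were separated between the shapes. TDT, the vacuolar malate transporter, stood at 205, 75.1 and 234.5 FPKM in Ov and at 23.5, 45.2 and 52.4 FPKM in Bo (-1.98 ± 0.45, adjusted p = 0.210).

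In the hormone and stress lists, a few mRNAs were well separated. ERF-1, an ethylene response factor, stood at 16.7, 33.9 and 26.3 FPKM in Ov and at 97.2, 70.9 and 74.7 FPKM in Bo (1.66 ± 0.37, adjusted p = 0.195). SIB2, a sigma factor binding protein, stood at 3.58, 8.04 and 4.66 FPKM in Ov and at 45.1, 19.9 and 21.2 FPKM in Bo (2.17 ± 0.49, adjusted p = 0.209). Of 32 mRNAs of heat and stress proteins, 1 was higher and 5 were lower at an unadjusted p under 0.05, with a median of -0.25, which was -0.06 without Bo3. The heat shock factors AT-HSFB2B and HSFC1 moved apart. AT-HSFB2B stood at 23.9, 17.4 and 23.6 FPKM in Ov and at 6.11, 9.98 and 11 FPKM in Bo, and HSFC1 at 17.6, 31.5 and 34.5 FPKM in Ov and at 62.5, 69.7 and 59.9 FPKM in Bo. Their adjusted p-values were 0.268 and 0.401. The 16 auxin mRNAs by product name had a median of -0.23, with none higher and 3 lower at an unadjusted p under 0.05, and the median was 0.03 without Bo3. IAA27-like (XM_011011057.1), an auxin-signalling repressor, stood at 94.6, 67.4 and 41.7 FPKM in Ov and at 41.2, 27.9 and 39.7 FPKM in Bo. The 34 auxin mRNAs by symbol had a median of 0.06, which fell below 0 after median ratio scaling. That scaling also brought the median over all mRNAs from 0.07 to 0.01.

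Light, photosynthesis and defence lists differed little. Of 47 clock and light mRNAs, 3 were higher and 2 lower at an unadjusted p under 0.05, with a median of -0.06. ELF3, part of the evening complex of the clock, stood at 14.5, 27.6 and 14.9 FPKM in Ov and at 39.2, 32.3 and 31.6 FPKM in Bo (0.88 ± 0.26, adjusted p = 0.387). The 40 photosynthesis mRNAs by symbol had a median of -0.12, with 1 higher and 3 lower. Their most abundant member, PSAL, a subunit of photosystem I, stood at 618, 573 and 514 FPKM in Ov and at 517, 461 and 511 FPKM in Bo. All 10 of the supplement's photosynthesis mRNAs were chosen by the study as falling toward Bo, and the Rubisco small subunit mRNA XM_011022942.1 stood at 2499, 2570 and 1280 FPKM in Ov and at 1851, 1618 and 964 FPKM in Bo. The shapes overlapped in that mRNA. The 47 mRNAs of disease resistance and WRKY genes had 3 higher and 1 lower, with a median of 0.13, and an RPS6-like resistance mRNA (XM_011004568.1) stood at 1.01, 3.52 and 2.33 FPKM in Ov and at 8.12, 8.32 and 9.92 FPKM in Bo (1.65 ± 0.38, adjusted p = 0.225). The 55 ribosomal protein mRNAs had 1 higher and 2 lower, with 14 above and 41 below 0 and a median of -0.10, which was 0.21 without Bo3. Of the 40 ribosomal protein mRNAs in the supplement, the study chose 39 as falling toward Bo. The direction of that list is therefore not independent evidence. Without Bo3 the clock and light median was 0.02, so that both signs turned on 1 library. The median over all mRNAs rose from 0.07 to 0.12 at the same time, and the clock and light median was below it in both fits.

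Far more mRNAs passed when Bo3 was left out. Without it, 559 mRNAs were called (1.72%), 452 higher and 107 lower, against 41 with it. In 371 of the 559, Bo3 did not lie past the nearest Ov library in the direction called, and in 211 it lay within the Ov range. Some of the largest changes that were not called with all 6 libraries were called without Bo3, and 3 of them are given here. XM_011014921.1 (LOC105117309) stood at 3440, 1357 and 2863 FPKM in Ov and at 2.09, 5.63 and 837 FPKM in Bo (-6.52 ± 1.57, adjusted p = 0.243). XM_011040146.1 (LOC105135327) stood at 3.21, 0.748 and 0.234 FPKM in Ov and at 496, 474 and 0.576 FPKM in Bo (5.11 ± 1.70, adjusted p = 0.427). XM_011003715.1 (LOC105109115) stood at 11.4, 7.38 and 5.36 FPKM in Ov and at 587, 590 and 6.84 FPKM in Bo. In the last 2, Bo3 was at the Ov level and the other Bo libraries were alike, whereas in XM_011014921.1 Bo3 lay between the groups. Others, such as XM_011016709.1 and XM_011017982.1, were not called without Bo3 either.

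Secondary wall and vascular genes were among the mRNAs that split the Bo libraries, and those named here were chosen after their values were seen. Of 13 xylem and phloem mRNAs tested by symbol, 2 were called higher without Bo3, and of 6 xylem and vascular mRNAs by product name, 3 were. Laccase-12-like (XM_011006014.1), of a family that links lignin units, stood at 3.14, 0.209 and 4.01 FPKM in Ov and at 20.1, 25 and 0.0979 FPKM in Bo. CTL2, a chitinase-like protein of wall formation, stood at 8.04, 7.57 and 3.18 FPKM in Ov and at 37.3, 37.5 and 1.17 FPKM in Bo. PARVUS, an enzyme of xylan synthesis, stood at 14.0, 15.8 and 8.59 FPKM in Ov and at 49.2, 34.4 and 16.3 FPKM in Bo. Bo3 was the lowest of all 6 libraries for laccase-12-like and CTL2. The 24 xylem and phloem mRNAs by symbol summed to 75.9 to 103 FPKM in Ov, to 194 and 158 FPKM in Bo1 and Bo2 and to 77.2 FPKM in Bo3. MYB60, a guard cell regulator in Arabidopsis, stood at 7.71, 3.95 and 4.95 FPKM in Ov and at 23.0, 26.5 and 3.27 FPKM in Bo. KIS, a tubulin-folding cofactor, was at most 0.0291 FPKM in Ov and stood at 28.3, 21.0 and 0.0231 FPKM in Bo. These 5 mRNAs were called without Bo3 and not with it. A difference in tissue make-up between Bo3 and the other Bo libraries was not tested.

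**Figure D4:**
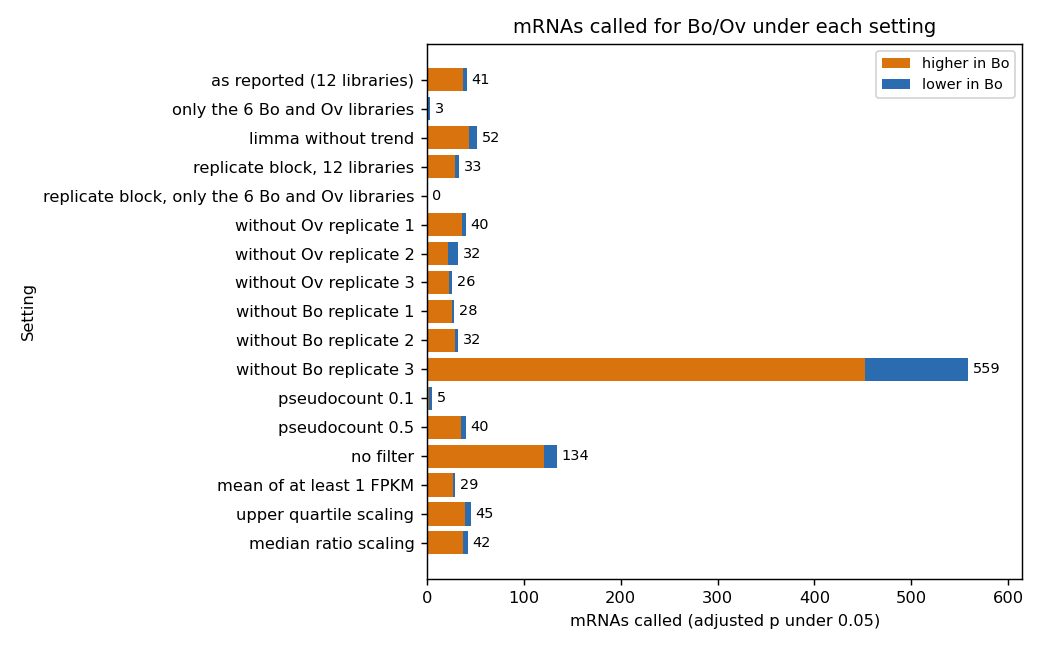
Horizontal bars give the number of mRNAs called for Bo/Ov under each setting, split into higher (orange) and lower (blue) in Bo. The count is 41 as reported, 559 without Bo replicate 3, 5 with a pseudocount of 0.1 and 3 when only the 6 Bo and Ov libraries are fitted.

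For lncRNAs, 5 of 1432 were called (0.349%), 3 higher (0.209%) and 2 lower (0.14%) in Bo. At an unadjusted p under 0.05 there were 166 (11.6%), 105 higher (7.33%) and 61 lower (4.26%), and groups did not overlap in 9.29% in the higher and 4.54% in the lower direction. XR_843136.1 (LOC105129801) was under 0.01 FPKM in Ov and stood at 5.16, 5.04 and 4.75 FPKM in Bo, and it was under 0.01 FPKM in all Li and La libraries (2.58 ± 0.18, adjusted p = 1.8e-05). It was called in 15 of 16 alternatives and was the most stable call of any RNA class in that count. XR_841287.1 (LOC105120263) was listed at 0 in Ov and stood at 1.49, 1.11 and 0.749 FPKM in Bo (1.07 ± 0.18, adjusted p = 0.0282). XR_842771.1 (LOC105128129) was listed at 0 in Ov and stood at 0.942, 1.23 and 2.22 FPKM in Bo (1.27 ± 0.22, adjusted p = 0.0340). Each of these latter calls held in 5 of 15 alternatives.

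The lower pair was better expressed. XR_844356.1 (LOC105136503) stood at 5.89, 8.04 and 4.92 FPKM in Ov and at 0.942, 0.639 and 0 FPKM in Bo (-2.28 ± 0.32, adjusted p = 0.0115). XR_843882.1 (LOC105133851) stood at 13.8, 14.1 and 31.3 FPKM in Ov and at 0, 0.142 and 0.361 FPKM in Bo (-4.06 ± 0.66, adjusted p = 0.0282). The next in order were not called. The assembled lncRNA TCONS_00064440 stood at 1.07, 0.713 and 0.384 FPKM in Ov and at 8.47, 11.2 and 2.85 FPKM in Bo (2.17 ± 0.41, adjusted p = 0.0543), and TCONS_00052792 at 0, 0.295 and 0 FPKM in Ov and at 6.05, 9.77 and 1.14 FPKM in Bo (2.32 ± 0.46, adjusted p = 0.0718). Both were lowest in Bo3 within Bo, and both were called without it. XR_840367.1 (LOC105115598) stood at 2.04, 10.7 and 4.19 FPKM in Ov and at 0 in Bo (adjusted p = 0.151), and XR_841901.1 and XR_845092.1 differed by -1.15 and -1.04 (adjusted p = 0.12 and 0.191). The lncRNA count was 1 without Bo2, 2 without Ov3 and 24 without Bo3. The number of lncRNAs above 0 was 2588, 2611 and 2646 in Ov and 2612, 2637 and 2606 in Bo (exact permutation p = 0.9, two-sided).

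Fewer circRNAs were seen in Bo than in Ov libraries. The number above 0 was 240, 205 and 280 in Ov and 176, 188 and 182 in Bo, or 242 ± 37.5 against 182 ± 6.00 (SD, n = 3). The shapes did not overlap, and the difference of -59.7 had an exact permutation p of 0.1 (two-sided), the smallest that 20 splits allow. circRNA levels are given in RPM, junction reads per megaread, and the reads behind each value were worked out by taking the lowest value of a library as 2 reads. On that reading the libraries held 6415, 3973 and 4268 junction reads in Ov and 6071, 5028 and 3594 in Bo (exact permutation p = 1). Depth was close to even, at 81.5 to 83.3 megareads behind each library.

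A single circRNA carried much of the signal. circRNA_0974, over LOC105111597, made 16.6% to 55.2% of the RPM of a library, at 39.8, 11.6 and 13.3 RPM in Ov and 41, 30.6 and 7.33 RPM in Bo. Its host mRNA XM_011007004.1 stood at 1459, 369 and 501 FPKM in Ov and at 1353, 1110 and 411 FPKM in Bo, with the same libraries high. Without circRNA_0974, junction reads numbered 3172, 3028 and 3158 in Ov and 2718, 2479 and 2997 in Bo (exact permutation p = 0.1), and the shapes did not overlap.

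**Figure D5:**
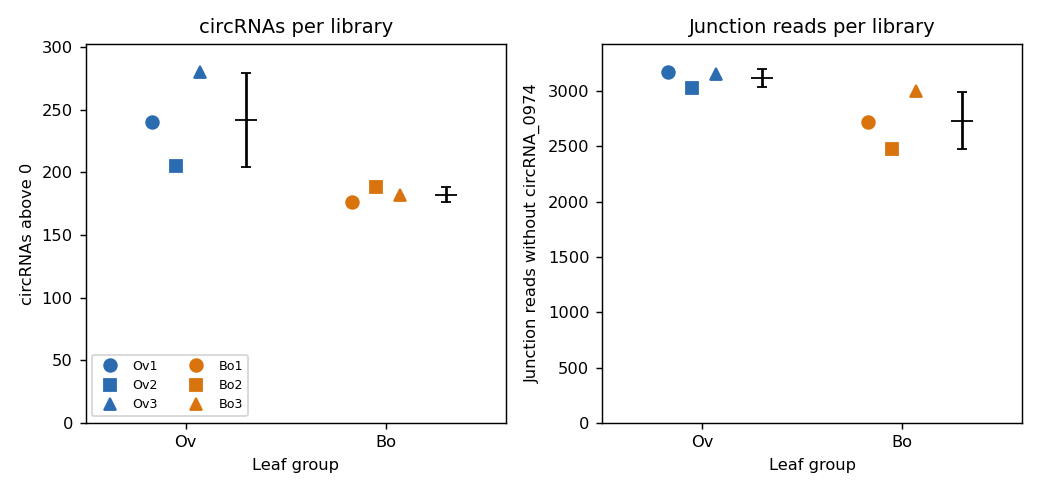
The number of circRNAs above 0 (left) and of junction reads without circRNA_0974 (right) in each of the 3 Ov and 3 Bo libraries, with the mean and SD of each group in black. Every Bo library lies below every Ov library in both, with 176 to 188 against 205 to 280 circRNAs.

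No circRNA was called out of 249 (0%). At an unadjusted p under 0.05 there were 42 (16.9%), 15 higher (6.02%) and 27 lower (10.8%) in Bo, and groups did not overlap in 1.61% in the higher and 4.82% in the lower direction. In 23 of the 742 circRNAs seen in any of the 6 libraries all 6 were above 0, and 493 were seen in 1 library only. Of the 249 tested, 44 were at 0 in all Bo, 23 were at 0 in all Ov and 182 were seen in both shapes. The median change was -0.25 on the log2 scale.

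In all, 6 circRNAs were present in all 3 libraries of one shape and in none of the other, 3 on each side. The lowest p-value was that of circRNA_0839 (scaffold NW_011500051.1 of the PopEup_1.0 assembly, 402079 to 409945, overlapping LOC105107701), with 0 junction reads in Ov and 4, 3 and 3 reads in Bo (adjusted p = 0.160). Its host encodes a WD repeat protein and stood at 1.47, 0.569 and 0.217 FPKM in Ov and at under 0.01, 1.41 and 2.82 FPKM in Bo, in overlap. circRNA_0151, over a calcium-transporting ATPase 10-like gene (LOC105120955), had 0 reads in Ov and 2, 2 and 3 in Bo. On the Ov side circRNA_1047 (LOC105114269) had 15, 103 and 82 reads and none in Bo (-5.76 ± 1.77, adjusted p = 0.175), while its host mRNA stood at 16.8, 52.8 and 17.5 FPKM in Ov and at 23.1, 23.3 and 2.53 FPKM in Bo. circRNA_0040 had 2, 6 and 2 reads and circRNA_0135 had 4, 2 and 5 reads in Ov, and neither had any in Bo. Most of these counts are so low that a few reads decide presence, and 0 reads allow up to 3 by counting error alone. circRNA_0839 and circRNA_0040 were called without Bo3.

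A further group of circRNAs was seen in Bo1 and Bo2 but not in Bo3 or Ov. circRNA_0189, over the fatty acid elongase gene KCS10, had 13, 26 and 0 reads in Bo, circRNA_0609 had 12, 12 and 0, and circRNA_0739 had 6, 4 and 0. KCS10 itself stood at 265, 71.4 and 153 FPKM in Ov and at 186, 142 and 74.7 FPKM in Bo. In Ov, circRNA_0765 had 0, 11 and 22 reads and circRNA_0098 had 6, 0 and 5, with none in Bo. All of these had an adjusted p of 0.175, and no host mRNA of the named circRNAs was called (adjusted p of 0.665 or more). Without Bo3, 9 circRNAs passed, circRNA_0189, circRNA_0609 and circRNA_0739 among them, and without Ov2, 12 did.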

How the data were processed

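RNA was prepared by the authors from rRNA-depleted, strand-specific libraries read on an Illumina sequencer. The authors aligned reads to the RefSeq transcripts of P. euphratica with Bowtie2, let eXpress share out reads that fit several transcripts, and deposited mRNA and lncRNA levels as FPKM. circRNAs were called with CIRI, and the authors deposited them as RPM. FPKM does not give fragment depth, so precision rests on the 3 libraries per group. Junction reads were worked out from the lowest RPM of each library.

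log2(FPKM + 1) was fitted with limma 3.58.1 (R 4.3.3) to 12 libraries with 4 group means, an intensity trend and the contrast Bo minus Ov. circRNAs were fitted as log2(RPM + 0.0116), a pseudocount set from the lowest RPM. p-values were adjusted by Benjamini-Hochberg within each RNA class, and 0.05 was the threshold. Counts per library were compared by exact permutation tests in Python 3.11.15 with scipy 1.17.1. The fitting was tested on simulated data. A replicate block, scalings, pseudocounts, filters and leaving out each library were tried.

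Members and lists were chosen with earlier results of these data known. Named transcripts were all those called, or the 15 largest changes and those with a name where more than 25 were called in a direction. At least 5 per direction were named where fewer passed. Each list gave its called members and some of its 3 highest levels. Symbols came from the RefSeq gene table (49440 of 49676 mRNAs matched, 4145 with a symbol other than a locus number).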

Additional observations from a re-analysis of the deposited data

How the results depend on the processing

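Counts of calls moved with the settings, and in some settings so did the excess of rises among called mRNAs. In the fit of only the 6 Bo and Ov libraries 1 was higher and 2 were lower, and with a pseudocount of 0.1, 2 were higher and 3 lower. Where other settings gave calls at an adjusted p under 0.05, 68.8% to 93.1% of the called mRNAs were higher. For mRNAs (41 called), 3 passed when only the 6 Bo and Ov libraries were fitted, 5 with a pseudocount of 0.1, 134 with no filter, 26 to 559 when 1 library was left out, and 2921 without adjustment. The other mRNA settings without a replicate block gave 29 to 52. For lncRNAs (5 called), 3 passed without a trend, 3 with no filter, 3 with a mean of at least 1 FPKM, 2 with a pseudocount of 0.1, 1 to 24 when 1 library was left out, and 166 without adjustment. For circRNAs (0 called), 1 passed in the fit of the 6 libraries, 2 among those above 0 in at least 3 of the 6 libraries, 1 to 12 when 1 library was left out, and 42 without adjustment. With no filter more features were tested, and without a library fewer samples were fitted; for the other settings the cause was not tested. No called mRNA kept its call in all 16 alternatives.

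Whether the same replicate number pairs libraries was left undecided: deviations correlated at 0.319, 0.0414 and 0.289 for numbers 1, 2 and 3. Pairs of different numbers lay between -0.331 (Bo1 and Ov3) and 0.0513 (Bo2 and Ov1). Numbers 1 and 3 thus held the highest values, while Bo2 was about as close to Ov1 as to Ov2. With a replicate block, 33 mRNAs, 6 lncRNAs and 0 circRNAs passed over 12 libraries, and 0 mRNAs, 0 lncRNAs and 0 circRNAs in the block fit of the 6 libraries.

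The difference in mRNAs above 0 (98.3) was -2.50 to 260.5 when 1 library was left out, the low end without Bo2. For lncRNAs above 0 (3.33) it was -10.2 (without Ov1) to 18.8, with -6.00 without Bo2. For junction reads (12.3) it was -574 (without Bo1) to 777, with -444, -296 and -52.8 without Ov2, Ov3 and Bo2, and -388 without the most abundant circRNA. The number of circRNAs above 0 was lower in Bo under each library left out (-40.5 to -78.0). Among single transcripts named, 3807 comparisons with an alternative kept direction and side of the threshold, 252 lost the call, 48 gained it, 6 moved and none reversed. Only a called transcript can lose a call, whereas the 3807 include transcripts that were not called and stayed so. These totals thus do not measure how stable the calls were. Called mRNAs kept their call in 3 to 14 of the 15 or 16 alternatives each had. A count test on circRNA junction reads was not run. With 3 libraries a group, exact tests cannot go below 0.1.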

Other observations

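The 37 mRNAs that rose in Bo were also low in the younger leaf shapes. The spread was estimated over all 12 libraries, so that mRNAs with even Li and La levels were favoured for a call. Their low Li and La levels are therefore in part selected and are not independent evidence. Their summed level was 12.8, 4.49 and 6.05 FPKM in Ov1, Ov2 and Ov3 and 172, 170 and 205 FPKM in Bo1, Bo2 and Bo3. It was 14.96, 12.4 and 12.2 FPKM in Li1, Li2 and Li3, most of which came from XM_011042175.1, and 5.13, 4.16 and 4.14 FPKM in La1, La2 and La3. The called lncRNA XR_844356.1, lower in Bo than in Ov, was higher still in Li (14.9, 14.8 and 18.0 FPKM) and La (9.13, 11.3 and 9.12 FPKM). XR_843882.1 stood at 7.14, 13.4 and 23.5 FPKM in La and at 4.86, 0 and 0.0234 FPKM in Li.

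Storage and secretion genes held large differences between libraries of one shape. The gibberellin-regulated protein 1-like mRNA XM_011046794.1 stood at 253, 227.4 and 912 FPKM in Ov and at 232, 400 and 1273 FPKM in Bo, with Ov3 and Bo3 high. Bark storage protein B-like (XM_011046185.1), a nitrogen store of poplar, stood at 15.5, 177 and 284 FPKM in Ov and at 120, 203 and 85.2 FPKM in Bo. Sucrose synthase 2 (XM_011008162.1) stood at 216, 763 and 326 FPKM in Ov and at 301, 570 and 793 FPKM in Bo. The 22 phenylpropanoid and flavonoid mRNAs by product name had a median log2 change of -0.29, which was 0.32 without Bo3, where 5 of them were called higher. Flavonoid 3'-monooxygenase-like (XM_011038141.1), an enzyme of flavonoid hydroxylation, stood at 434, 183 and 116 FPKM in Ov and at 421, 188 and 52.1 FPKM in Bo. The 20 cell wall and expansion mRNAs by product name had a median of -0.34 (-0.03 without Bo3), with none higher and 1 lower at an unadjusted p under 0.05, and 19 of the 24 listed were chosen by the study as falling toward Bo.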
